A study of Mus musculus with 12 samples.

Results

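The carbonic anhydrases of the mouse distal colon are described here in 12 mice. The members were the 10 genes Car1, Car2, Car3, Car4, Car7, Car8, Car9, Car12, Car13 and Car14, taken by symbol from 35241 gene symbols of the deposited table. All 10 members were among the 15880 symbols with a mean of at least 0.5, the level required for the comparisons. RNA of full-thickness distal colon, which holds epithelium, muscle, nerves and vessels together, was sequenced mouse by mouse. The 6 Spry2IEKO mice carried Vil1::Cre and homozygous floxed Spry2 (Vil1::Cre;Spry2-f/f), so that Cre under the villin promoter deletes Sprouty2 in the intestinal epithelium and leaves it in the other cells of the wall. The 6 Spry2FF mice were littermates with floxed Spry2 and no Cre (Spry2-f/f). Mice of both genotypes carried the floxed allele and received no treatment that the labels name. The labels give 6 weeks as the age to which the mice were reared and 8 weeks as the age at collection. Litters A and B each held 3 mice of each genotype. Of the Spry2FF mice 3 were male and 3 female, whereas 1 Spry2IEKO mouse was male and 5 were female, so sex and genotype were partly confounded. The imbalance lay in litter A, where every Spry2IEKO mouse was female and Spry2FF 2 and Spry2FF 3 were male. Mice are named by genotype and by the sample number of their labels.

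Carbonic anhydrases are zinc enzymes that interconvert carbon dioxide and bicarbonate with release or uptake of a proton. In the colon they supply protons and bicarbonate to the exchangers of the luminal membrane, through which surface colonocytes absorb salt and water. Members differ in place: Car1, Car2, Car3, Car7 and Car13 are cytosolic, Car4 is anchored to the membrane by a lipid, Car9, Car12 and Car14 span the membrane with the catalytic domain outside, and Car8 is a related protein without the catalytic activity.

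Values are TPM, the share of a transcript among all transcripts of a mouse after correction for length, scaled once more between mice by the authors and summed over the transcripts of a gene (normalized TPM). Levels on this scale can be set side by side between genes. The totals of the 12 mice ran from 918816 to 1069158, and 18655 to 19753 symbols were above 0 in a mouse. Read counts cannot be had from them. The paper gives an approximate depth per sample, but the depth of each mouse is unknown, and intervals for counting error were not computed. Spry2 itself was 18.5 to 22.5 in Spry2IEKO mice and 22.8 to 32.3 in Spry2FF mice, without overlap. Markers of colonocytes, goblet cells, smooth muscle and enteric nerves were present in every mouse, and the 5 Hox genes of the hindgut end summed to 385 to 514. In 2 mice, Spry2IEKO 4 and Spry2IEKO 5, adipocyte markers stood far above the rest, with sums of 390 and 666 over 9 markers against 10.3 to 74.5 in the other mice.

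Of the 10 members, 4 lie in a cluster on chromosome 3 (GRCm38, GENCODE M21). Car13 (14641727 to 14663002, plus strand), Car1 (14766216 to 14808368, minus strand), Car3 (14863512 to 14872523, plus strand) and Car2 (14886273 to 14900770, plus strand) together span 259044 bases. Car14 (95897768 to 95904691, minus strand) lies farther along the same chromosome. Car8 (8143362 to 8239041, minus strand) and Car9 (43506966 to 43513729, plus strand) are on chromosome 4. Car7 is on chromosome 8 (104534689 to 104550343, plus strand), Car12 on chromosome 9 (66713686 to 66766845, plus strand) and Car4 on chromosome 11 (84957786 to 84966044, plus strand).

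Promoter windows in RefSeq (GRCm38.p6, 250 bases before to 50 after a start) were found for 5 of the 10 members, namely Car4, Car7, Car9, Car12 and Car14. The windows of Car9 and Car4 are shown, because Car9 is a textbook target of hypoxia-inducible factor and Car4 is the most abundant member with a window. Capitals mark the letters ACGTG or GCGTG, the core that this factor reads, searched on both strands; in both windows the match is ACGTG on the opposite strand, and the motif reads as CACGT. The Car9 window lies at chr4:43506776-43507075 on the plus strand, and the Car4 window at chr11:84957504-84957803 on the plus strand.
Car9: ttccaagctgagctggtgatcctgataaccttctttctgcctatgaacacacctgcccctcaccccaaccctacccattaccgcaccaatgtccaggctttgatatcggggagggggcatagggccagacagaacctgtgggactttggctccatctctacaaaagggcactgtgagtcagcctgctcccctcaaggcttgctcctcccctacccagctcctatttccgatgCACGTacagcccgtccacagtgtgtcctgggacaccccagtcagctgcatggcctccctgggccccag
Car4: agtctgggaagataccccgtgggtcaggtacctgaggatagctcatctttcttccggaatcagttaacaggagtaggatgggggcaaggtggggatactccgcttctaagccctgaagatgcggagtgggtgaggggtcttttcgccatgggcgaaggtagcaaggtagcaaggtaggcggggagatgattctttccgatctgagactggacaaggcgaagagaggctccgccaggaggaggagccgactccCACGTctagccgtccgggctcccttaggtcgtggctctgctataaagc
The match began 18 bases before the start in Car9 and 2 bases after it in Car4. Of all 32851 windows in the table, 19.6% held ACGTG or its reverse complement and 32.4% held GCGTG or its reverse complement. Car14 also held ACGTG, 7 bases before its start. Car12 held neither, and of the 3 windows of Car7 2 held GCGTG. A match is a description of the letters and not a binding site.

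Car1, Car4 and Car2 made up nearly all carbonic anhydrase transcripts, between 85.2% and 98.4% of the summed level of the 10 members in each mouse. Their means over the 12 mice were 1938 ± 642 for Car1, 1373 ± 420 for Car4 and 1158 ± 194 for Car2 (SD, n = 12, normalized TPM). The order held in most mice rather than in all. Car1 was above Car4 in 11 of 12 mice, with a mean difference of 565 ± 553 (SD, n = 12), whereas Car4 was above Car2 in 8 of 12, with a mean difference of 215 ± 286. The 10 members together took 0.296% to 0.610% of a mouse's total.

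Below these 3 genes the level fell steeply. Car9 had a mean of 77.6 with a range from 61.3 to 95.3, Car13 a mean of 14.9 ± 2.47 (SD, n = 12), and Car2 was above Car9 in every mouse. Car3 had a mean of 76.6 ± 165, but its median was 4.26, so the mean was set by 2 mice. Car9 and Car3 therefore differed by less than their spread (0.975 ± 169), and Car3 was above Car13 in only 3 of 12 mice. Car14 (3.16 ± 1.70), Car12 (2.05 ± 0.425), Car8 (1.66 ± 0.323) and Car7 (0.921 ± 0.311) closed the order, and neighbours among them overlapped. Of 6 further family genes, Car11 was at 4.18 ± 1.11, Car15 at 1.97 ± 0.550 and the mitochondrial Car5b at 1.55 ± 1.32, while Car5a, Car6 and Car10 stayed under the mean of 0.5 required.

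**Figure D1:**
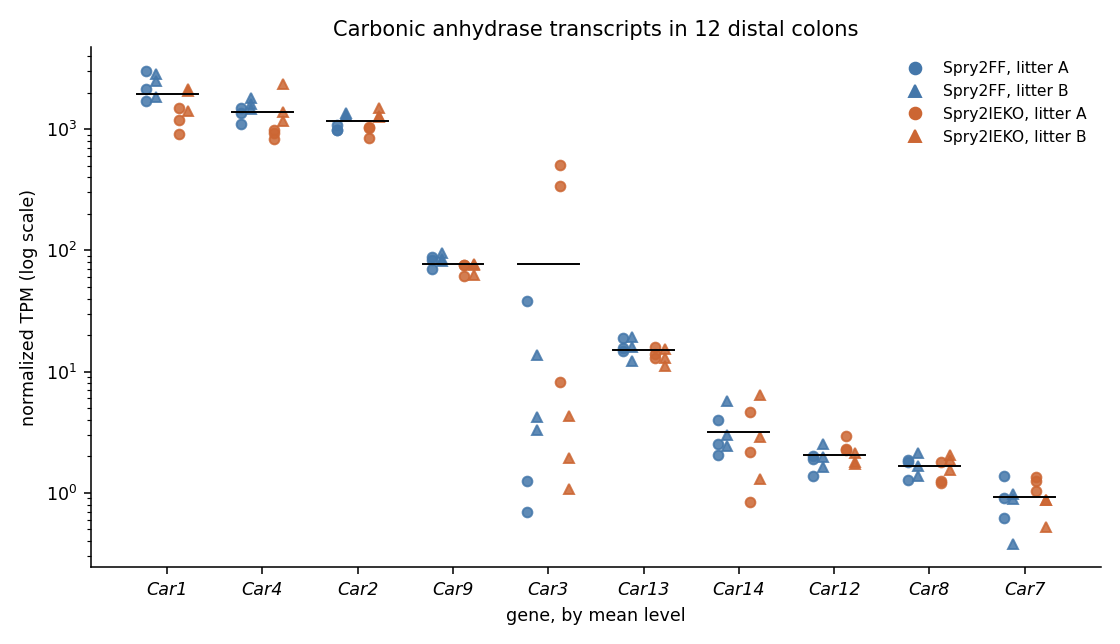
Level of each of the 10 members in each of the 12 mice, in normalized TPM on a log scale, with colour for genotype, marker shape for litter and a black line at the mean of all mice. Car1, Car4 and Car2 stand at 835 or more in every mouse, and Car3 runs from 0.701 to 506.

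The main question of the study was what loss of epithelial Sprouty2 changes in the colon. No member passed an adjusted p of 0.05 between genotypes (limma, all 12 mice, Benjamini-Hochberg over 15880 genes), against 5 of 15880 genes, or 0.0315%, that did. At an unadjusted p under 0.05, 2 of the 10 members, Car1 and Car9, were lower in Spry2IEKO mice, beside 6.18% of all genes in either direction and 3.17% of all genes in that direction. Of the 10 members 7 had a lower and 3 a higher fitted level in Spry2IEKO mice, with a median log2 difference of -0.13 beside 0.01 over all genes tested. No member had all Spry2IEKO mice below all Spry2FF mice, which 0.214% of all genes did.

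Car1, a cytosolic enzyme of mature colonocytes, had the largest of these differences that did not rest on the 2 mice rich in adipocyte markers. Its level ran from 912 to 2153 with a median of 1450 in Spry2IEKO mice, and from 1708 to 3012 with a median of 2329 in Spry2FF mice. The groups overlapped, with 4 of 6 Spry2IEKO mice below every Spry2FF mouse. The mean of 1537 ± 487 was 65.7% of the Spry2FF mean of 2340 ± 531 (SD, n = 6 each). The log2 difference was -0.64 ± 0.21 (SE), with an adjusted p of 0.692 and an unadjusted p of 0.00986 by limma. The exact two-sided permutation test of the means gave p = 0.0281, and p = 0.025 when mice were permuted within litters.

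Within litter A the mean of Car1 in Spry2IEKO mice was lower by 1090 normalized TPM (1203 ± 295 against 2292 ± 663, SD, n = 3 each). Within litter B it was lower by 515 (1872 ± 413 against 2387 ± 508, SD, n = 3 each). All Spry2IEKO mice of litter A were female, and its only Spry2FF female, Spry2FF 7, had the lowest Car1 of the Spry2FF mice (1708). The interaction of genotype and litter had an adjusted p of 0.998 by limma for Car1. Among females alone the log2 difference was -0.42 (unadjusted limma p of 0.183), and without the 2 mice highest in adipocyte markers it was -0.47.

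Markers of epithelial cell types were set beside Car1. Of 10 tested colonocyte markers 9 had a lower fitted level in Spry2IEKO mice, with 0 past the adjusted threshold and 4 at an unadjusted p under 0.05, and a median log2 difference of -0.27. The 11 listed markers, Alpi under the mean required included, summed to between 3243 and 6229 in Spry2IEKO mice and between 3729 and 5576 in Spry2FF mice, and none was at 0 in every mouse. All 8 goblet cell markers had a higher fitted level, with 0 past the adjusted threshold and 7 at an unadjusted p under 0.05, and a median of 0.52. Their sum ran from 8736 to 16594 in Spry2IEKO mice and from 7142 to 11141 in Spry2FF mice, again with none at 0. All 7 tested tuft cell markers and all 7 enteroendocrine markers also had higher fitted levels, with 0 past the adjusted threshold, medians of 0.50 and 0.36, and 2 and 1 genes at an unadjusted p under 0.05. Tuft markers summed to a median of 37.5 and a highest value of 49.6 in Spry2IEKO mice, and to 22.4 and 34.0 in Spry2FF mice, and the groups overlapped. Enteroendocrine markers summed to between 338 and 710 and between 341 and 569, in the same order of genotypes. Of 5 crypt base markers 2 had a higher and 3 a lower fitted level, with 0 past the adjusted threshold and a median of -0.09, and sums of 73.0 to 94.5 and 83.4 to 112. No marker of these 3 lists was at 0 in every mouse. The part of these markers in the level of Car1 was not tested, and in RNA of a whole tissue fewer cells of a type and less RNA per cell cannot be told apart.

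The ratio of Car1 to Car2, both of the cluster on chromosome 3, does not depend on the scaling between mice. It was 1.31 ± 0.233 in Spry2IEKO mice (1.08 to 1.69, median 1.28) and 2.03 ± 0.456 in Spry2FF mice (1.41 to 2.77, median 2.01). Of 6 Spry2IEKO mice 4 were below every Spry2FF mouse. The ratio was chosen after the values of both genes had been seen and is given without a test. Car1 made up 36.2% ± 4.43 of the summed level of the members in Spry2IEKO mice and 45.7% ± 5.63 in Spry2FF mice.

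Car2, the fast cytosolic enzyme found in many secreting epithelia, had nearly the same level in both genotypes. It ran from 842 to 1491 with a median of 1147 in Spry2IEKO mice and from 973 to 1369 with a median of 1182 in Spry2FF mice. The log2 difference was -0.02, with a 95% interval from -0.32 to 0.27 and an adjusted limma p of 0.988. Its sign turned within litter B alone (0.024), without the 2 mice highest in adipocyte markers (0.11), and in 6 of 12 fits that left out a mouse.

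Car4, the lipid-anchored enzyme of the colonocyte surface, ran from 835 to 2339 with a median of 1080 in Spry2IEKO mice and from 1101 to 1795 with a median of 1484 in Spry2FF mice. In litter A all 3 Spry2IEKO mice (835, 936 and 990), all female, were below all 3 Spry2FF mice (1101, 1346 and 1497). Of these Spry2FF mice only the lowest, Spry2FF 7, was female. In litter B the groups overlapped, since Spry2IEKO 12 had the highest Car4 of all mice, 2339, and Spry2IEKO 8 and 11 had 1171 and 1383. The log2 difference over both litters was -0.28 ± 0.21 (SE), with an adjusted limma p of 0.875. It was -0.48 without Spry2IEKO 12 (unadjusted p of 0.00633, adjusted limma p of 0.592), -0.18 without Spry2IEKO 4, and -0.064 without the 2 mice highest in adipocyte markers.

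**Figure D2:**
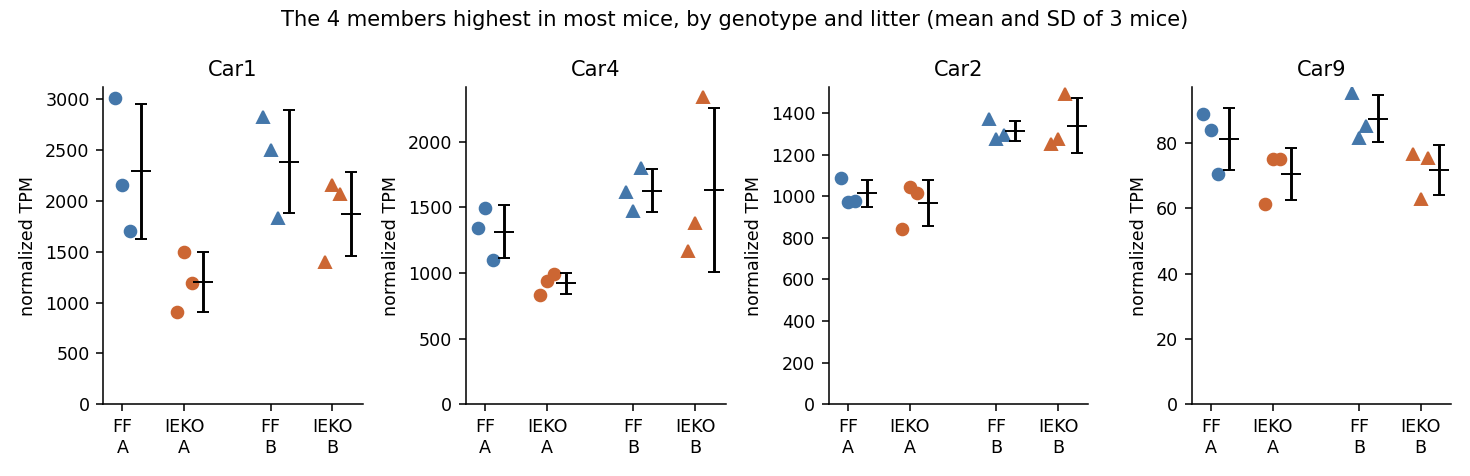
Car1, Car4, Car2 and Car9 in normalized TPM by genotype (FF, Spry2FF; IEKO, Spry2IEKO) and litter (A, circles; B, triangles), 1 point a mouse, with black bars for the mean and SD of 3 mice. Car1 has lower means in Spry2IEKO mice of both litters, and Car2 has all litter B mice above all litter A mice.

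Car9, a membrane enzyme that acts on extracellular pH, was the other member lower at the unadjusted threshold. It ran from 61.3 to 76.5 with a median of 74.9 in Spry2IEKO mice and from 70.5 to 95.3 with a median of 84.6 in Spry2FF mice. The groups overlapped through Spry2FF 7 at 70.5, and 5 of the 6 Spry2FF mice lay above every Spry2IEKO mouse. The mean of 71.0 ± 6.93 was 84.3% of 84.2 ± 8.25 (SD, n = 6 each). The log2 difference was -0.24 ± 0.08 (SE), with an adjusted limma p of 0.693. The exact permutation test gave p = 0.013, and p = 0.015 within litters. With females alone the log2 difference of Car9 was -0.18 (unadjusted limma p of 0.125). With sex as a covariate it was -0.19 (unadjusted limma p of 0.0365).

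Much of the Car9 signal did not come from the coding transcript. The annotated coding transcript made up 46.3% to 65.9% of Car9 in a mouse, and the rest came from short transcripts annotated as not coding. An antisense gene overlaps 1782 bases of Car9, and whether strand was used in the pseudoalignment is not given in the sources used here. The coding transcript alone was 39.2 ± 5.61 in Spry2IEKO mice and 46.6 ± 4.27 in Spry2FF mice (SD, n = 6 each, exact permutation p = 0.0346).

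Other targets of hypoxia-inducible factor were fixed as a list beside Car9. Of 12 such genes none passed the adjusted threshold between genotypes, 2 had an unadjusted p under 0.05, and 7 had a higher and 5 a lower fitted level in Spry2IEKO mice. Their median log2 difference was 0.02. Ndrg1, a stress-induced gene, had the highest value (0.37, adjusted limma p of 0.797), and Slc2a1, a glucose transporter, the lowest (-0.16, adjusted limma p of 0.856).

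Car3 separated mice rather than genotypes. It is the cytosolic form abundant in fat, liver and slow muscle. It reached 506 in Spry2IEKO 5 and 337 in Spry2IEKO 4, and 37.9 in Spry2FF 2. In the other 9 mice it lay between 0.701 and 13.7. The fitted log2 difference between genotypes was 1.73 ± 1.46 (SE, adjusted limma p of 0.889), and it turned to -0.56 without the 2 highest mice and to -1.26 within litter B alone. The groups overlapped between 1.07 and 37.9, and 2 Spry2IEKO mice were above every Spry2FF mouse.

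Car3 followed the adipocyte markers mouse by mouse. The 3 genes of most similar pattern over the 12 mice were Cyp2e1 (Pearson r of 0.98 on the log2 scale), Adipoq, the hormone adiponectin of fat cells (0.98), and Cfd, the adipocyte protease adipsin (0.98). The 9 adipocyte markers summed to 666 in Spry2IEKO 5, 390 in Spry2IEKO 4 and 74.5 in Spry2FF 2, the same 3 mice that led in Car3. These 3 mice also led in 7 red cell markers, with sums of 194, 508 and 389 in that order, against 53.9 to 133 elsewhere. In the 9 skeletal muscle markers these 3 mice did not stand apart, with sums of 33.6, 31.7 and 50.7 in a range from 18.6 to 63.3. Of these markers Myh4 was at 0 in every mouse, 5 reached the mean required, and Ckm had 21.3 of the mean sum of 38.7. Whether fat dissected with the colon, muscle or blood carried the Car3 transcripts was not tested. Car5b, a mitochondrial member of the family outside the 10, was also highest in Spry2IEKO 5 (4.87) and Spry2IEKO 4 (3.66), against 0.523 to 1.32 in the other mice.

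**Figure D3:**
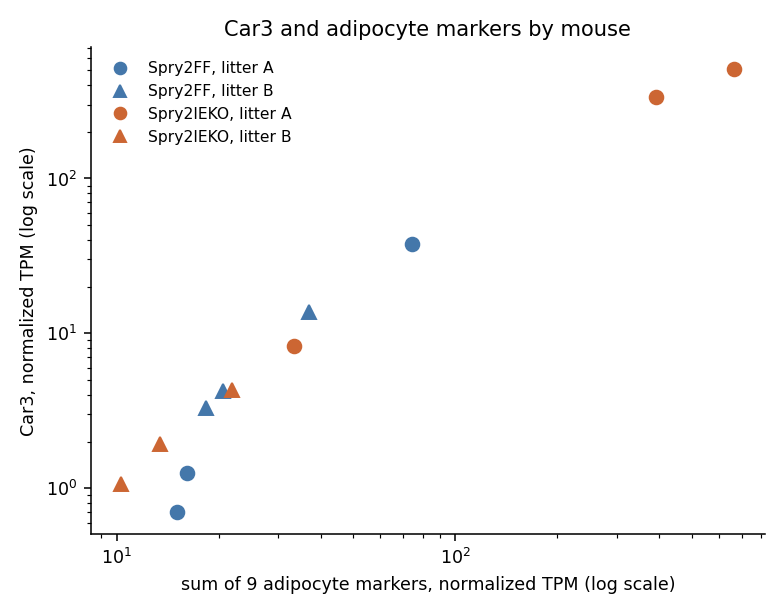
Car3 (vertical, normalized TPM, log scale) against the sum of 9 adipocyte markers (horizontal, normalized TPM, log scale), 1 point a mouse, with colour for genotype and marker shape for litter. The 2 Spry2IEKO mice of litter A at 337 and 506 stand apart at the upper right, and Spry2FF 2 follows at 37.9.

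The members of low level showed no difference between genotypes that passed a test. Car13, cytosolic and in the cluster with Car1, was 13.7 ± 1.74 in Spry2IEKO mice and 16.1 ± 2.63 in Spry2FF mice (SD, n = 6 each), a log2 difference of -0.22 with an adjusted limma p of 0.837. Among females alone the value for Car13 was -0.0025 (unadjusted limma p of 0.984). Car14 was 3.04 ± 2.12 and 3.28 ± 1.34, Car12 was 2.19 ± 0.440 and 1.91 ± 0.394, Car8 was 1.62 ± 0.347 and 1.69 ± 0.325, and Car7 was 0.986 ± 0.301 and 0.855 ± 0.335, in the same order of genotypes. The signs for Car7, Car8, Car12 and Car14 each turned in at least 1 alternative. On the log2(value + 0.5) scale, differences of Car7 and Car8 are understated. Car14 overlaps 521 bases of Aph1a, a gene of the opposite strand with a mean of 107, so reads of the shared stretch could count for either.

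The litters were compared in the same way. In litter B against litter A, with genotype as a term, 1 of 10 members passed an adjusted p of 0.05 by limma, beside 4.38% of all genes, and it was higher in litter B, as were 1.08% of all genes. At an unadjusted p under 0.05 there were 2 members, beside 21.9% of all genes. Of the 10 members 6 had a higher and 4 a lower fitted level in litter B, with a median log2 difference of 0.12 beside -0.05 over all genes tested. Library names in the labels begin differently for the 2 litters, so litter and anything done litter by litter cannot be told apart.

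The member that passed was Car2. It ran from 842 to 1089 with a median of 997 in litter A and from 1250 to 1491 with a median of 1285 in litter B. Every litter B mouse was above every litter A mouse, a separation in that direction shared by 0.781% of all genes. The mean was 990.5 ± 84.6 for litter A and 1326 ± 90.5 for litter B (SD, n = 6 each), a log2 difference of 0.42 ± 0.07 (SE, adjusted limma p of 0.0142). The exact permutation test gave p = 0.00216, the smallest that 6 mice against 6 allow, and p = 0.005 within genotypes, again the smallest possible.

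The separation of the litters in Car2 fixes the same direction within each genotype, where the sizes were as follows. Spry2FF mice had means of 1013 ± 65.6 (litter A) and 1313 ± 49.6 (litter B), and Spry2IEKO mice of 968 ± 110 (litter A) and 1339 ± 132 (litter B) (SD, n = 3 each). The log2 differences were 0.38 and 0.47, with adjusted limma p-values of 0.189 and 0.322. Among females alone the log2 difference was 0.47 (adjusted limma p of 0.109), and without the 2 mice highest in adipocyte markers it was 0.38 (adjusted limma p of 0.0759). Over other pseudocounts, filters, scalings, covariates and subsets of mice it ran from 0.32 to 0.47.

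Car4 was the other member past the unadjusted threshold. It ran from 835 to 1497 with a median of 1045 in litter A and from 1171 to 2339 with a median of 1543 in litter B. The litters overlapped, with 3 of 6 litter B mice above every litter A mouse. Litter A had a mean of 1117 ± 255 and litter B of 1629 ± 407 (SD, n = 6 each), a log2 difference of 0.54 ± 0.16 (SE, unadjusted p of 0.00569 and adjusted p of 0.0766 by limma). The exact permutation test gave p = 0.0195, and p = 0.01 within genotypes.

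The mean of Car1 in litter A was 1747 ± 753, and that in litter B 2129 ± 501 (SD, n = 6 each), with a log2 difference of 0.36 and an adjusted limma p of 0.306. Car9 differed by 0.07 on the log2 scale (adjusted limma p of 0.675). The value was 0.23 by its highest transcript alone, the coding one (unadjusted p of 0.00725, adjusted limma p of 0.0849), and its sign turned when the mice were rescaled to a common total of 1000000. Car3 had a log2 difference of -2.45 (adjusted limma p of 0.316), and of -0.21 without the 2 highest mice. The remaining members had log2 differences from -0.34 for Car7 to 0.34 for Car14, and none passed the test.

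**Figure D4:**
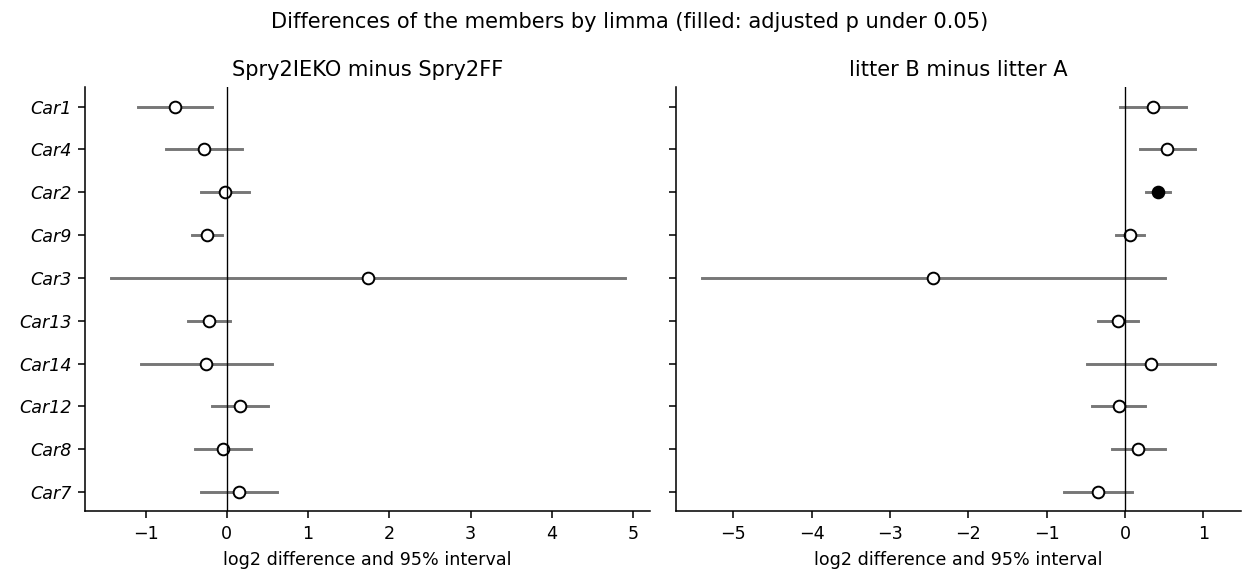
Log2 difference and 95% interval by limma for each member, between genotypes (left, Spry2IEKO minus Spry2FF) and between litters (right, B minus A, with genotype as a term); a filled point marks an adjusted p under 0.05. Car2 between litters, at 0.42, is the filled point, and the intervals of Car3 are the widest.

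Other markers also moved with litter. Of 6 endothelial markers 5 were lower in litter B at an adjusted p under 0.05 by limma, with a median log2 difference of -0.96. Their sum ran from 64.0 to 107 in litter A and from 32.3 to 48.3 in litter B, and none was at 0. Of 10 tested colonocyte markers 6 had a higher and 4 a lower fitted level in litter B, with a median log2 difference of 0.21. The 11 listed summed to 4077 ± 832 in litter A and 5035 ± 786 in litter B (SD, n = 6 each). An unadjusted p under 0.05 was reached by 5 markers, of which only Guca2a was lower. Guca2a, a hormone of the mature colonocyte, was also the only one to pass the test (-0.57, adjusted limma p of 0.0264). Hoxd13, a gene of the hindgut end, passed in the other direction (0.36, adjusted limma p of 0.0248), as 1 of 5 such Hox genes. The part of these differences in Car2 and Car4 was not tested.

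Differences between genotypes were also compared across litters. No member passed an adjusted p of 0.05 for the interaction, beside 0.0126% of all genes. At an unadjusted p under 0.05 there was Car3 alone (p of 0.0194, adjusted limma p of 0.998), beside 4.19% of all genes. The highest Car3 values were those of the 2 Spry2IEKO mice of litter A named above, and the interaction was not fitted without them.

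Carbonic anhydrases work beside carriers of bicarbonate, protons and chloride. These were listed with the water channel Aqp8 and the scaffold protein Slc9a3r1 as 26 transport genes, of which 21 had a mean of at least 0.5. Aqp8 and Slc26a3 are also in the colonocyte list. Between genotypes none of the 21 passed the adjusted threshold, 4 had an unadjusted p under 0.05, and 18 had a lower and 3 a higher fitted level in Spry2IEKO mice, with a median log2 difference of -0.07. Slc9a3, a luminal sodium-proton exchanger, had the lowest value (-0.62, adjusted limma p of 0.873), and Slc4a8, a sodium-driven bicarbonate carrier, the highest (0.25, adjusted limma p of 0.919).

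Between litters 2 of the 21 transport genes passed, both lower in litter B. Slc4a7, a sodium-bicarbonate cotransporter, had a mean of 27.3 ± 2.29 for litter A and 20.2 ± 2.33 for litter B (SD, n = 6 each), a log2 difference of -0.43 with an adjusted limma p of 0.0197. Cftr, the chloride and bicarbonate channel of crypt cells, was 38.3 ± 6.22 and 28.4 ± 2.88, a log2 difference of -0.41 with an adjusted limma p of 0.0436. The highest value was that of Slc26a3, the chloride-bicarbonate exchanger of surface colonocytes, at 686 ± 165 and 1105 ± 280 (0.68, adjusted limma p of 0.0572). The lowest was that of Slc9a3 (-0.65, adjusted limma p of 0.431). The median over the list was -0.05, the same as over all genes. Of the 12 hypoxia targets none passed between litters, 1 had an unadjusted p under 0.05, and 9 were higher and 3 lower, with Vegfa, a vessel growth factor, at 0.34 and Ndrg1 at -0.38.

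Levels of the more abundant members were correlated across mice. Pairs among Car1, Car2, Car4, Car9 and Car13 had Pearson r from -0.05 to 0.81 over 12 mice (10 pairs), and 4 pairs had an adjusted permutation p under 0.05 for r. Car4 and Car2 had r of 0.81 (permutation p = 0.00164, adjusted 0.0164) and Spearman rho of 0.76 (permutation p = 0.00626, adjusted 0.043), with r of 0.61 without the 2 mice farthest in Car4. Within litters r was 0.47 in A and 0.88 in B. Car1 and Car13 had r of 0.66 (permutation p = 0.0195, adjusted 0.0487) and rho of 0.73 (permutation p = 0.00861, adjusted 0.043), with r of 0.76 without the 2 mice farthest in Car1, 0.86 within litter A and 0.94 within litter B. Car1 with Car4 (r of 0.68, rho of 0.64) and Car1 with Car9 (r of 0.67, rho of 0.69) were the other 2, each with an adjusted permutation p of 0.0487 for r. Their adjusted permutation p for rho was 0.0607 and 0.0533, and without the 2 mice farthest in Car1 their r was 0.43 and 0.52. Within litters A and B r was 0.88 and 0.31 for Car1 with Car4, and 0.90 and 0.34 for Car1 with Car9. All points share the scaling between mice. Car2 and Car4 were both higher in litter B, so their r over 12 mice also holds that difference between litters.

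The genes closest in pattern to each member were named by Pearson r over the 12 mice among 12873 genes with a mean of at least 2. For Car1 they were Rdh9 (0.89), Krt20, a keratin of surface colonocytes (0.86), and Gm16259 (0.86). For Car2 they were Gsdmd, the pore-forming gasdermin D (0.95), Cyp2d12 (0.93) and Srsf11 (0.93). For Car4 they were Rbp2, a cellular retinol-binding protein (0.96), Armc9 (0.96) and Cbr1, a carbonyl reductase (0.94).

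For Car9 the closest were Ttyh2 (0.94), Crip1 (0.90) and Cdc42bpb (0.90), and for Car13 Tmem43 (0.88), Spink10 (0.87) and Cdc42se2 (0.86). For Car12 they were Zfpm1 (0.90), Prpf19 (0.83) and Tmem120b (0.83). Car14 stood with Cacnb2, a calcium channel subunit (0.91), and Palld, an actin-binding protein (0.88). These r values are descriptions over mice that share litter and scaling, with no test.

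Transcripts of single members were set apart by the annotation. Car1 has a second start 29909 bases upstream of its main start, and transcripts from it made up 0.912% to 2.35% of Car1 in a mouse. Their share in litter A was 1.31% ± 0.412, and in litter B 1.89% ± 0.393 (SD, n = 6 each, exact permutation p = 0.039). Car4 had 5.12% to 15.7% of its level in transcripts not annotated as coding, where litter A had 7.62% ± 2.23 and litter B 11.3% ± 2.92 (SD, n = 6 each, exact permutation p = 0.039).

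Shares of the same kind were computed for all genes and for Car9. Over all genes, transcripts with a retained intron took 4.77% ± 0.191 of a mouse's total in litter A, and 5.38% ± 0.465 was the value for litter B (SD, n = 6 each, exact permutation p = 0.0173). The share of the coding transcript in Car9 was 52.1% ± 3.66 and 58.7% ± 4.83 (SD, n = 6 each, exact permutation p = 0.0216). Over these 4 shares and both comparisons, 8 tests in all, each of the 4 litter differences had an adjusted p of 0.0779 by the exact permutation test, and none passed. The genotypes had exact permutation p-values from 0.576 to 0.994.

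**Figure D5:**
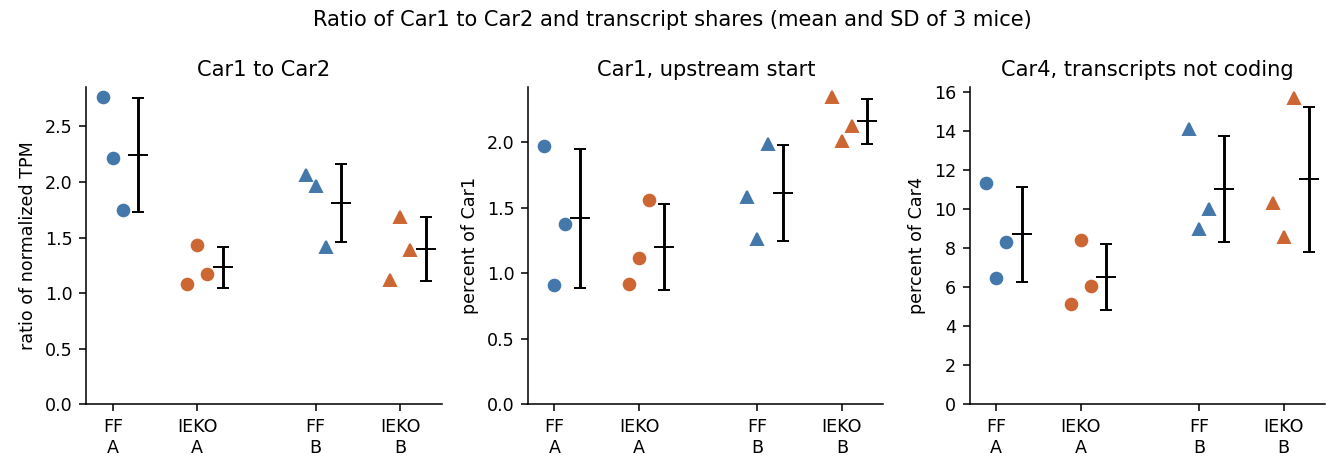
Ratio of Car1 to Car2 (left), share of Car1 from the upstream start (middle, percent) and share of Car4 in transcripts not annotated as coding (right, percent), by genotype (FF, Spry2FF; IEKO, Spry2IEKO) and litter, 1 point a mouse, with black bars for the mean and SD of 3 mice. The ratio has lower means in Spry2IEKO mice of both litters, and both transcript shares overlap between litters.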

How the data were processed

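Full-thickness distal colon of 12 mice was sequenced from stranded mRNA libraries. Per the labels and the paper, the authors pseudoaligned reads with kallisto, with sleuth and CASAVA also named and mm10 as the build. The deposited signal is TPM of each transcript scaled once more between mice, which can move every value of a mouse together. Of 113974 entries 781 repeated a transcript and were dropped, and transcripts were summed by gene symbol. Unnamed entries reached 0.0608% of a total at the highest. The design was planned for plain TPM, and its tests were left as planned. Depth is not part of the values, so no test for counts was run.

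The 15880 genes whose mean reached 0.5 entered limma 3.58.1 under R 4.3.3 (lmFit, eBayes with trend, two-sided, Benjamini-Hochberg over all genes) on log2(signal + 0.5), without covariates between genotypes and with genotype as a term between litters. Single values were compared by two-sided exact permutation of the mice, overall and within litters or genotypes. Correlations were tested by permutation. The scripts were tested on simulated data. Permutations ran under SciPy 1.17.1 and NumPy 2.4.6 in Python 3.11.15, tables under pandas 2.3.3 and plots under matplotlib 3.10.9. Replicates are separate mice.

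Genes named are the 10 members, the 6 other family genes by level, and, of the carrier and hypoxia lists, those past the threshold and the largest rise and fall in each comparison. For each member with a mean of at least 2, the 3 genes of highest Pearson r are named, except 1 for Car14 that is not reported here. Marker genes named with litter (Guca2a, Hoxd13) and the ratio of Car1 to Car2 were chosen after their values were seen. The members and all lists were chosen with earlier results of these data known. The deposited table also holds p-values and q-values of the authors, which were not used. Protein sequences were not used here. The results were recomputed with other pseudocounts, other filters on low values, rescaling, quantile normalization, the highest transcript alone, covariates, single litters, genotypes or females, and each mouse left out.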

Additional observations from a re-analysis of the deposited data

Results flagged for a closer look

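A mouse far from the others of its group was looked for in each member and in the sum of the members, in each genotype and each litter, 44 groups in all, and 3 were found. Chance flags about 1 in 20 groups. Car3 in Spry2FF 2 was 37.9 normalized TPM, against 0.701 to 13.7 in the other Spry2FF mice. Car3 in Spry2FF 10 was 13.7, against 1.07 to 4.30 in the other mice of litter B. Adipocyte markers summed to 74.5 and 36.9 in these mice. Car4 in Spry2IEKO 12 was 2339, against 835 to 1383 in the other Spry2IEKO mice.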

How the results depend on the processing

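The litter count of 1 member fell to 0 among females alone, in Spry2FF mice alone, in Spry2IEKO mice alone, and without the 2 mice highest in adipocyte markers, an alternative chosen after seeing the data. All of these use fewer mice. It stayed at 1 in the other alternatives, and from 1 to 1 when each mouse was left out, with adjusted limma p-values of Car2 from 0.0144 to 0.0382. The genotype count stayed at 0 throughout, from 0 to 0 with each mouse left out. Over all genes the litter comparison called 696, from 178 to 957 with a mouse left out, and from 1 (females alone, Spry2IEKO mice alone) to 1458 (rescaled to a common total of 1000000) in the other alternatives. The genotype comparison called 5, from 1 to 11 with a mouse left out and from 0 to 6 otherwise.

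Signs of small differences turned between genotypes. With litter B alone the log2 differences were 0.024 for Car2, -1.26 for Car3, 0.067 for Car8 and -0.085 for Car12. Without the 2 mice highest in adipocyte markers they were 0.11 for Car2, -0.56 for Car3 and -0.0082 for Car7. Car8 was 0.060 among females alone and 0.065 with sex or with litter and sex as covariates, where Car14 was 0.00011. Car12 was -0.22 by its highest transcript. Between litters, Car3 was 0.55 and Car12 was 0.16 in Spry2FF mice alone, Car9 was -0.013 after rescaling, Car14 was -0.041 among females alone, and Car12 was 0.025 by quantile normalization, 0.18 by its highest transcript and 0.032 without the 2 mice. The causes were not tested. With each mouse left out, Car2 ran from -0.10 to 0.063 and Car8 from -0.11 to 0.012 between genotypes. Of Car1 and Car9 between genotypes, and Car2 and Car4 between litters, no alternative turned the sign. The depth of each mouse, which is not known, limits members under 5 normalized TPM. Single mice could not be paired, because the genotypes and litters share no replicate numbers. The shared litters entered as a covariate and through permutation within litters.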
